A study of Mus musculus with 12 samples.

Results

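Lysosome and autophagy genes were followed through 4 groups of mouse MLL-AF9 leukemia cells. The group held 51 genes chosen by name, 30 of the lysosome and 21 of autophagy, out of 22180 genes that the array annotation names alone on at least 1 probe set. Among the probe sets that carry a gene's symbol alone, the 1 with the highest mean over the 12 arrays stood for the gene, and 50 of the 51 were measured and tested, since no probe set was annotated with Glb1 (the lysosomal beta-galactosidase gene) alone. All 50 passed the filter on dim genes, a mean log2 intensity over the 12 arrays of at least 4.719.

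The cells came from bone marrow of C57BL/6J mice with acute myeloid leukemia driven by MLL-AF9, a fusion oncogene. Recipients irradiated with 10 Gy were given 50000 progenitor and stem cells that expressed it, and the marrow was taken when each recipient became leukemic; ages are not given in the labels. The 4 groups had 3 arrays each: AMPK-deficient L-GMP (AMPKΔ/Δ), wild-type L-GMP (AMPKfl/fl, floxed alleles labelled WT), AMPK-deficient whole leukemia (AMPKΔ/Δ) and wild-type whole leukemia (AMPKfl/fl). Whole leukemia meant all GFP+ cells, and L-GMP meant leukemic granulocyte-macrophage progenitors that were GFP+, lin-, c-kit+, CD16/32+ and CD34+. All 4 groups carried the oncogene and came from irradiated hosts. From each marrow, 5000 cells were sorted, and the RNA was amplified and labelled with biotin for a one-colour array. The labels name neither the AMPK subunit gene that was deleted nor the Cre that deleted it, and they do not say that replicates are separate animals, so p-values measure only how far these samples differ among themselves, and that may be technical.

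The lysosome is the acidic compartment in which proteases, glycosidases and lipases break down material delivered from outside the cell and from within it. Autophagy is the route from within: a kinase complex around ULK1 and a lipid kinase complex around BECN1 and PIK3C3 start a membrane cup, conjugation enzymes attach ATG8 proteins such as LC3 to it, and the closed autophagosome fuses with lysosomes. AMPK, a kinase that senses low cellular energy, phosphorylates ULK1 and acts on the transcription factors TFEB and TFE3, which bind a short E-box sequence in promoters of lysosome and autophagy genes. Myeloid cells, above all monocytes and macrophages, are rich in lysosomes.

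The E-box is shown first because it is the one DNA sequence by which many of these genes are known to be linked to the TFEB family. RefSeq promoters of assembly GRCm38.p6, from 250 bases before to 50 bases after the start, were found for 41 of the 51 genes. The core CACGTG was present on either strand (it reads the same on both) in 14 of these 41 genes (34.1%), against 8.09% of all 27025 genes with a promoter in the table. The longer TCACGTG, which contains the core and was searched on both strands, was present in 12 of 41 (29.3%), against 4.29% of all genes. The longer palindrome, CACGTG preceded by GT and followed by AC, contains both and was present in 1 of 41 (2.4%), against 0.37% of all genes, and that gene was Igf2r. A match is a description of the letters and was not tested as a binding site. The 7 promoters with more than 1 TCACGTG are printed, 5′ to 3′ on the strand of the gene, from near the first match to near the last, with the core of each match in capitals.
Lamp1 (chr8:13159090-13159160, plus strand): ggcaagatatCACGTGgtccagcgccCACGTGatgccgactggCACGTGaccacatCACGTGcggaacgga
Ctsa (chr2:164833751-164833784, plus strand): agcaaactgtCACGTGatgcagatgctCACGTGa
Ctsd (chr7:142387910-142388077, minus strand): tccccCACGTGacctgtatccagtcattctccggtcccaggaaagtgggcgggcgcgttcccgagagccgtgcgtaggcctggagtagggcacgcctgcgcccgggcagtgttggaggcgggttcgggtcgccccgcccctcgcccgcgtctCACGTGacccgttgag
Gla (chrX:134601184-134601242, minus strand): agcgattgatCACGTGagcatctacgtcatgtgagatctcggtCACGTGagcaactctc
Igf2r (chr17:12769707-12769764, minus strand): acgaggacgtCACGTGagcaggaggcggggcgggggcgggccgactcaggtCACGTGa
Mcoln1 (chr8:3500438-3500489, plus strand): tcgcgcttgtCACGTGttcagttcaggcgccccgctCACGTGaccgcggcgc
Atg3 (chr16:45158725-45158773, plus strand): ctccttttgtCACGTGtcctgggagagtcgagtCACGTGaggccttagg

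Lamp1, which encodes the most widely used lysosomal membrane marker, had 4 such cores, and each of the others had 2. These were genes of a membrane protein, a protease or glycosidase, a receptor, a calcium channel of the lysosomal membrane and, in Atg3, the enzyme that hands LC3 to its lipid.

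The 12 arrays were closely alike in their median intensity, which lay between 36.9 and 39.3, and pairs of arrays correlated at 0.865 to 0.983 over the tested genes. AMPK-deficient whole leukemia array 2 stood apart, and without it the lowest correlation was 0.914. Its mean over 7 erythroid markers was 9.04 on the log2 scale, against 5.20 and 5.96 in the other AMPK-deficient whole leukemia arrays and 5.09 to 5.28 in wild-type whole leukemia. In AMPK-deficient L-GMP array 2 the mean of the eosinophil, basophil and mast cell markers stood at 8.12, and the remaining L-GMP arrays of both genotypes lay between 5.56 and 6.11. Prkaa1, which encodes a catalytic subunit of AMPK, measured 7.31, 6.83 and 6.87 in AMPK-deficient L-GMP and 8.33, 7.99 and 8.12 in wild-type L-GMP, and 7.40, 7.45 and 6.95 in AMPK-deficient whole leukemia, against 8.69, 7.72 and 8.32 in wild-type whole leukemia. No array overlapped between genotypes, in the direction the labels give, but the limma adjusted p-values were 0.622 and 0.592. Prkaa2, the other catalytic subunit gene, lay near the lower limit in all 4 groups, with group means of 4.76 to 4.88. Cd34, part of the L-GMP gate, averaged 9.67 ± 0.22 and 9.76 ± 0.25 in AMPK-deficient and wild-type L-GMP, against 6.41 ± 0.78 and 8.74 ± 0.56 in AMPK-deficient and wild-type whole leukemia (SD, n = 3 each). The other gate genes, Kit, Fcgr3 and Fcgr2b, had overlapping arrays between L-GMP and whole leukemia in each genotype. Their L-GMP minus whole leukemia differences were 0.56, -0.32 and -0.05 in wild type. In AMPK-deficient leukemia these differences were 1.14, 0.08 and 0.46. In bulk samples such as these, fewer cells of a type and less RNA per cell cannot be told apart.

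Members varied more between arrays of 1 group than most genes did, but they were not compared with genes of like brightness. The median within-group SD was 0.341 on the log2 scale over the 29 lysosome genes and 0.28 over the 21 autophagy genes, against 0.194 over all 17749 genes tested. Ctss and Ctsh, which encode the proteases cathepsin S and cathepsin H, varied most, at 0.75 and 0.74. Single arrays held much of this. AMPK-deficient whole leukemia array 2 had the lowest value of the 12 arrays for 12 of the 29 lysosome genes and the highest for 9 of the 21 autophagy genes. Wild-type L-GMP array 1 had the lowest value for 15 of the 50 members. The lysosome genes averaged 7.85 in AMPK-deficient whole leukemia array 2, against 8.29 and 8.33 (arrays 1 and 3), while the autophagy genes averaged 7.77 in it, against 7.32 and 7.59. The dimmest members were Tfeb, Igf2r and Map1lc3a, with means over all arrays of 5.49, 5.57 and 5.62. Array compression near background can make differences of dim genes smaller than they are, which was not tested for these genes.

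**Figure D1:**
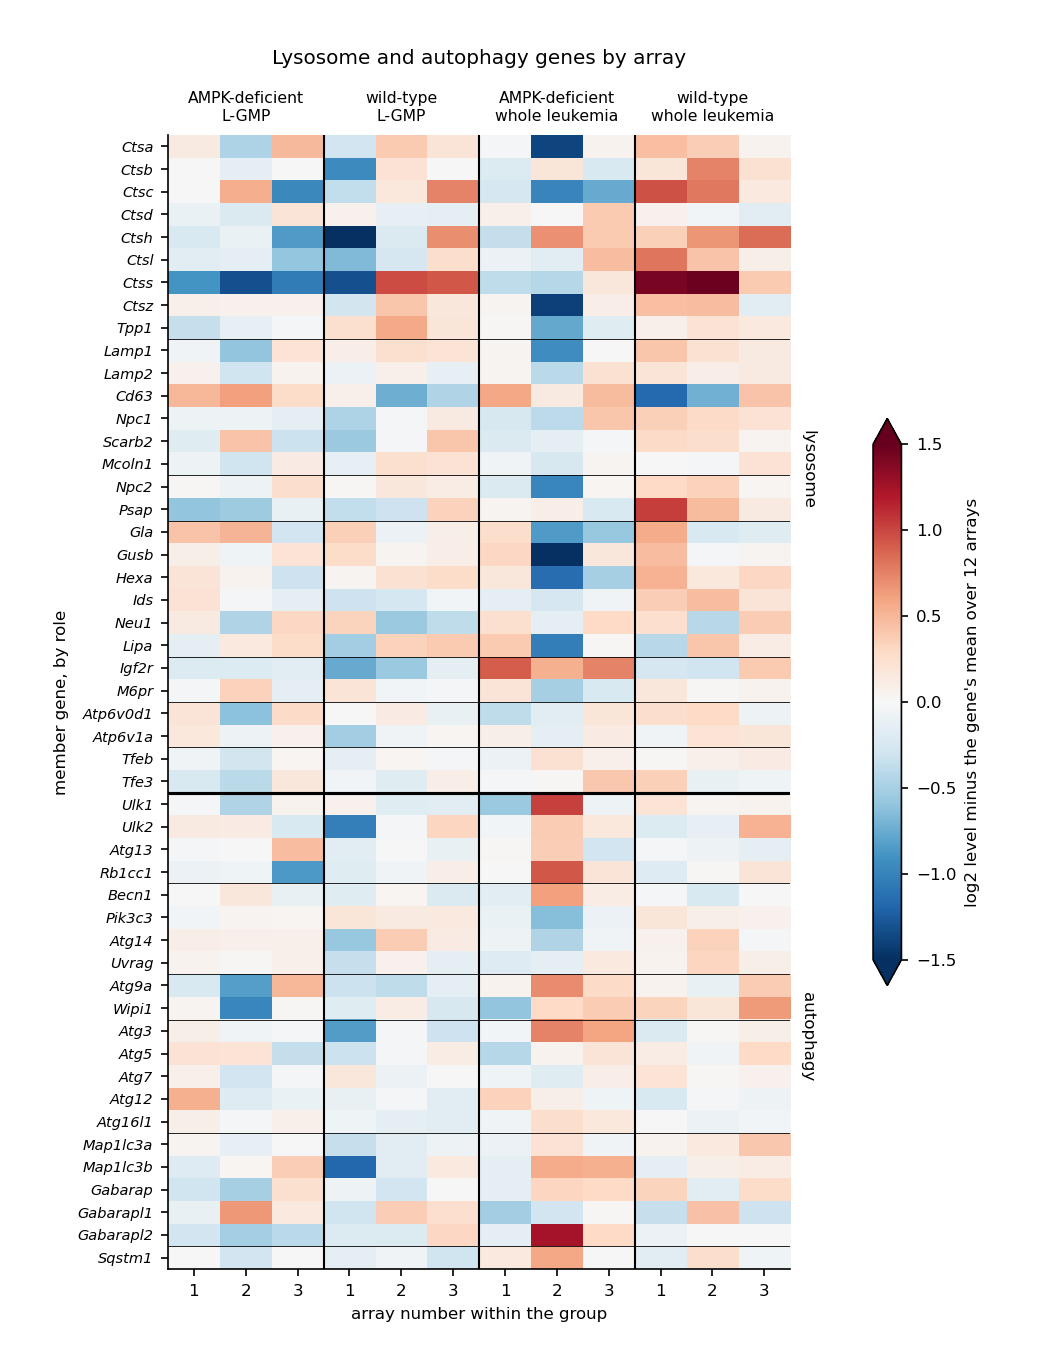
Heat map of the 50 measured members (rows, by role, lysosome above and autophagy below) in the 12 arrays (columns, by group). Colour is the log2 level minus the mean of that gene over the 12 arrays, from -1.5 (blue) to 1.5 (red). AMPK-deficient whole leukemia array 2 is blue for many lysosome genes and red for many autophagy genes, and wild-type whole leukemia is red for most lysosome genes.

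In AMPK-deficient whole leukemia the lysosome genes measured mostly lower than in wild-type whole leukemia, and no single gene passed the test. Of the 29, 24 (82.8%) had a lower mean and 5 a higher one, with a median difference of -0.365 on the log2 scale (the range was -1.31 to 0.88), while over all 17749 genes 50.4% were lower with a median of 0.00. Limma called 0 of the 29 at an adjusted p under 0.05, and it called 0% of all genes in this comparison. At an unadjusted p under 0.05 there were 7 lower and 2 higher lysosome genes, 31.0% of them, against 5.97% of all genes. The 3 AMPK-deficient arrays did not overlap the 3 wild-type arrays in 9 lower lysosome genes and 1 higher one (34.5%), against 11.2% of all genes. Among the lower ones, Ctsa and Npc2 were near ties. Of all genes, 5.73% were lower without overlap. Without AMPK-deficient whole leukemia array 2, 22 of the 29 were lower and the median was -0.203.

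The proteases carried the largest differences. Ctsc encodes cathepsin C, which activates the serine proteases of myeloid granules. It measured 7.13, 6.39 and 6.62 in AMPK-deficient whole leukemia and 8.34, 8.17 and 7.53 in wild-type whole leukemia. All 3 AMPK-deficient arrays lay below all 3 wild-type arrays, and the difference was -1.30 (SE 0.40), 0.407 times the wild-type level (limma adjusted p = 0.808). Ctss, whose protease processes antigens for presentation in myeloid cells, measured 8.75, 8.71 and 9.31 in AMPK-deficient whole leukemia and 10.56, 10.61 and 9.53 in wild-type whole leukemia, a difference of -1.31 (SE 0.54) with no overlap. Tpp1, for tripeptidyl peptidase 1, and Ctsa, for the protective protein cathepsin A, were also lower without overlap, at -0.46 and -0.74. For Ctsa this was a near tie, since AMPK-deficient array 3 and wild-type array 3 both read 9.538. Ctsb, Ctsh, Ctsl and Ctsz, for cathepsins B, H, L and Z, had lower means with overlapping arrays (-0.66 to -0.37), so 8 of the 9 proteases were on the lower side. The exception was Ctsd, for the aspartic protease cathepsin D, at 0.21 (SE 0.14) with overlapping arrays.

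Among the glycosidases, the sulfatase and the lipase, 5 of 6 had a lower mean. Ids, which encodes iduronate-2-sulfatase of glycosaminoglycan breakdown, had the lowest p of any member. It measured 6.10, 6.00 and 6.20 in AMPK-deficient whole leukemia and 6.62, 6.71 and 6.44 in wild-type whole leukemia. The highest AMPK-deficient array lay below the lowest wild-type array, and the difference was -0.49 (SE 0.12), 0.711 times the wild-type level, with a 95% interval of -0.76 to -0.22 (limma adjusted p = 0.592). Hexa, for a subunit of beta-hexosaminidase, measured 9.22, 7.91 and 8.56 in AMPK-deficient whole leukemia and 9.58, 9.21 and 9.37 in wild-type whole leukemia. AMPK-deficient array 1 reached the wild-type range, and the difference of -0.82 (SE 0.27) was -0.497 without array 2 (limma adjusted p = 0.827 over all arrays). Gla, Gusb and Lipa, for alpha-galactosidase A, beta-glucuronidase and lysosomal acid lipase, overlapped (-0.54 to -0.24), and Neu1, for a sialidase, was at 0.06.

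Membrane and lipid-handling members lay on the same side with 1 exception. Lamp1 differed by -0.56 (SE 0.26), Scarb2 (the receptor that carries glucocerebrosidase to the lysosome) by -0.32 (SE 0.24), and the soluble proteins' genes Npc2 (cholesterol transfer) and Psap (the precursor of the saposins) by -0.61 (SE 0.22) and -0.58 (SE 0.25), all lower without overlap. For Npc2 this was a near tie, 9.831 in AMPK-deficient array 3 against 9.833 in wild-type array 3. Lamp2, Npc1 and Mcoln1, for a second membrane glycoprotein, the cholesterol exporter and the calcium channel mucolipin 1, overlapped at -0.19, -0.36 and -0.15. For Npc1 a dimmer probe set lay on the other side, at 0.28. Cd63, the gene of a tetraspanin of lysosomes and granules, was the exception: it measured 10.32, 9.87 and 10.22 in AMPK-deficient whole leukemia and 8.57, 9.02 and 10.16 in wild-type whole leukemia. Wild-type array 3 lay within the AMPK-deficient range, and the difference was 0.88 (SE 0.35) (limma adjusted p = 0.827).

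The receptors that sort enzymes to the lysosome parted. Igf2r, for the large mannose 6-phosphate receptor, measured 6.48, 6.10 and 6.31 in AMPK-deficient whole leukemia and 5.32, 5.27 and 5.96 in wild-type whole leukemia. It was the 1 lysosome gene that was higher without overlap, at 1.72 times the wild-type level and a log2 difference of 0.78 (SE 0.20) with a 95% interval of 0.33 to 1.23 (limma adjusted p = 0.609). M6pr, for the small receptor, was at -0.26 (SE 0.17) with overlapping arrays. The proton pump genes Atp6v0d1 and Atp6v1a overlapped, at -0.28 and -0.09.

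Array 2 of AMPK-deficient whole leukemia weighed differently on these genes. Without it the differences of Ctsc, Ctss, Psap, Ids, Scarb2 and Igf2r were -1.14, -1.20, -0.64, -0.44, -0.32 and 0.88, close to those with it. Those of Tpp1, Ctsa, Lamp1 and Npc2 were -0.23, -0.27, -0.245 and -0.315, and Ctsz was at -0.17. Npc1, Lamp2 and Mcoln1 were at -0.20, -0.011 and -0.068, Gla and M6pr at -0.20 and -0.098, and Atp6v1a at -0.008. Ctsh was further from 0 without it, at -0.60, and Neu1 was at 0.19. Gusb and Lipa were then above 0, at 0.08 and 0.17.

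Markers of myeloid and erythroid cell types moved beside the lysosome genes. Of 19 measured monocyte and macrophage markers, 18 were lower in AMPK-deficient whole leukemia (median difference -0.50), and 8 did so without overlap (42.1%, against 5.73% of all genes). Their summed intensity was 10282 to 11054 in AMPK-deficient and 14258 to 17279 in wild-type whole leukemia, with Ly6c2 the brightest, and none was below the lower limit in either group. Without AMPK-deficient array 2, 19 of 19 were lower, with a median of -0.56. Neutrophil markers went the other way in 15 of 16, with sums of 16725 to 44564 in AMPK-deficient and 9753 to 28541 in wild-type whole leukemia. Erythroid markers were higher in 7 of 7, with sums of 263 to 8149 in AMPK-deficient and 247 to 279 in wild-type whole leukemia; the high end was array 2. None of the 16 neutrophil and 7 erythroid markers was without overlap. The part of these markers in the lysosome values was not tested.

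**Figure D2:**
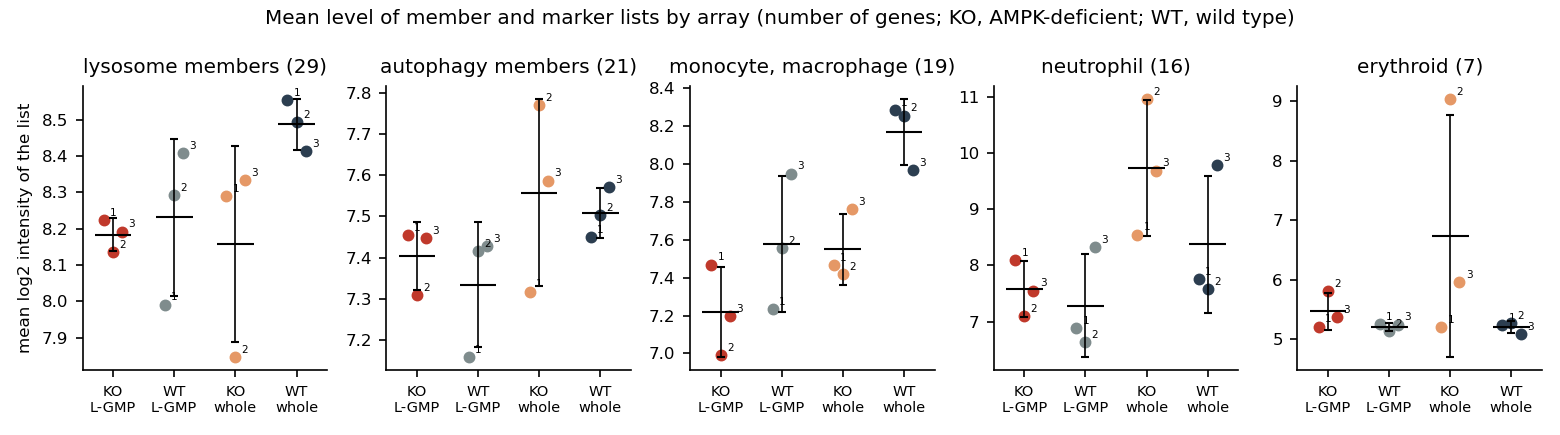
Mean log2 intensity of 5 gene lists in each array (points, numbered by array) with the group mean and SD (bars); the number of genes is in each title and KO stands for AMPK-deficient, WT for wild type. For lysosome genes and monocyte markers all 3 AMPK-deficient whole leukemia arrays lie below all 3 wild-type whole leukemia arrays, and AMPK-deficient whole leukemia array 2 stood out in the neutrophil and erythroid lists, at 10.96 and 9.04.

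The autophagy genes showed no such one-sided shift in whole leukemia. Of the 21, 13 had a higher and 8 a lower mean in AMPK-deficient cells, with a median of 0.10, and without AMPK-deficient array 2 there were 9 higher and 12 lower with a median of -0.053. Limma called 0, and 1 gene (4.76%) had an unadjusted p under 0.05, against 5.97% of all genes. The arrays did not overlap for 2 genes, 9.52% against the 11.2% of all genes, and both belong to the lipid kinase complex. Pik3c3, its catalytic subunit gene, measured 7.75, 7.21 and 7.76 in AMPK-deficient whole leukemia and 8.04, 7.94 and 7.91 in wild-type whole leukemia, a difference of -0.39 (SE 0.13), or -0.205 without array 2 (limma adjusted p = 0.827 over all arrays). Atg14, for the subunit that directs the complex to autophagy, was at -0.32 (SE 0.22), or -0.19 without array 2. The other 2 subunit genes overlapped and parted, Uvrag at -0.22 and Becn1 at 0.27. All 4 genes of the initiation kinase complex were on the higher side (0.03 to 0.37), in each case with overlap, and 3 of the 4 were below 0 without array 2. The conjugation genes ranged from -0.18 (Atg5) to 0.47 (Atg3), the ATG8 genes from -0.19 (Gabarapl1) to 0.50 (Gabarapl2), the membrane supply genes Wipi1 and Atg9a were at -0.36 and 0.24, and Sqstm1, for the cargo receptor p62, was at 0.23. Without array 2 several of the higher values were smaller: Gabarapl2 was at 0.12, Atg9a at 0.067, Sqstm1 at 0.058, Becn1 at 0.057 and Atg3 at 0.31. Atg12 was not, at 0.248 without array 2 and 0.228 with it.

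**Figure D3:**
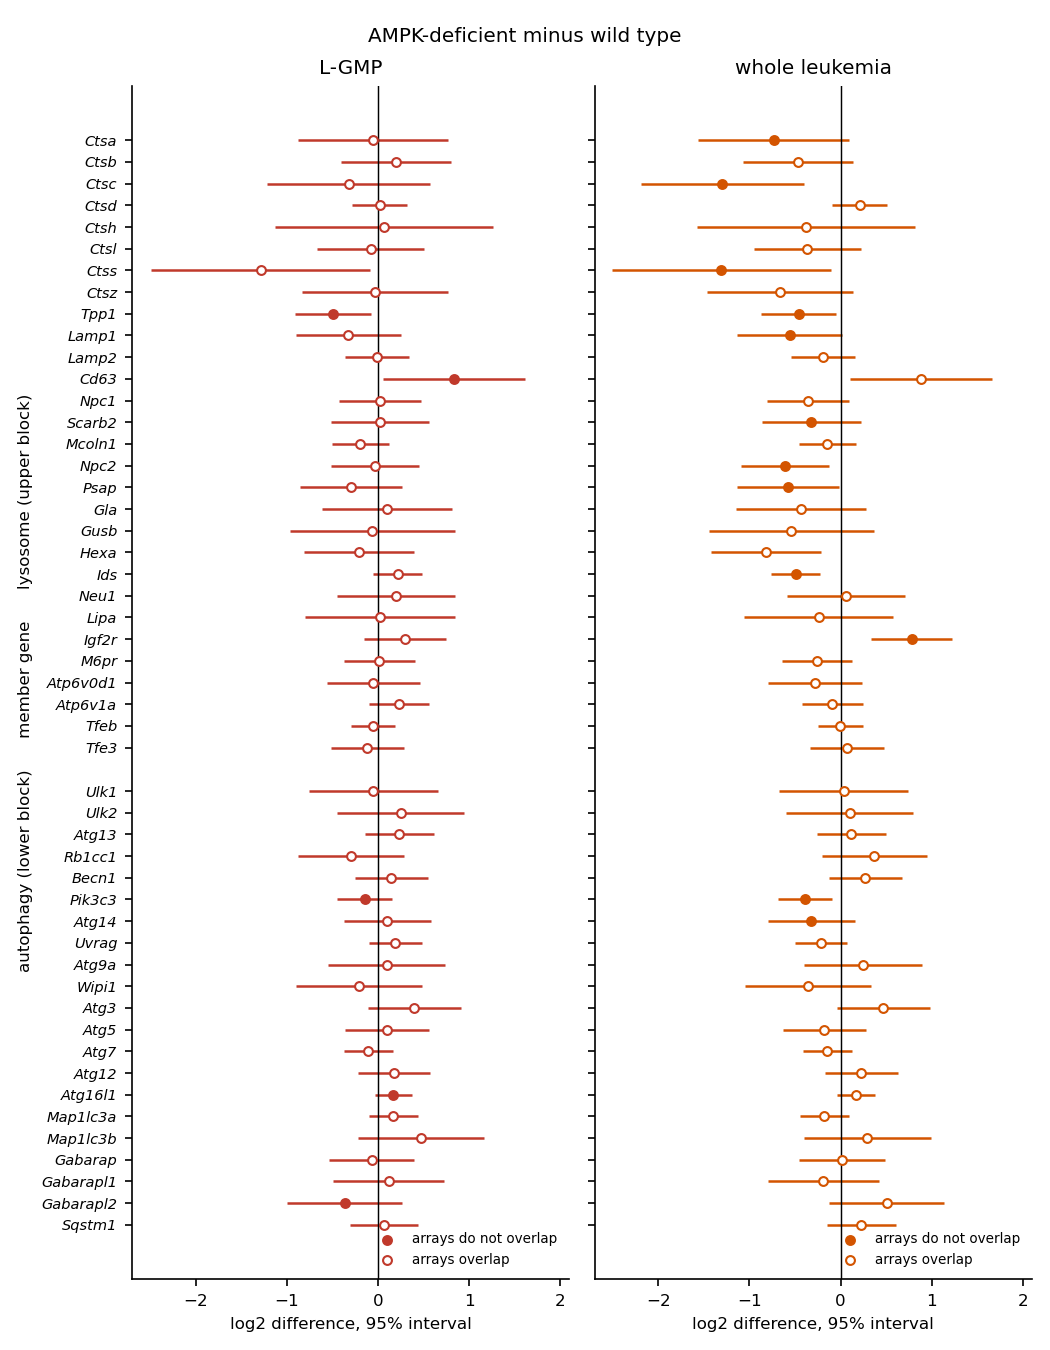
Log2 difference, AMPK-deficient minus wild type, for the 50 members in L-GMP (left) and whole leukemia (right), with the 95% interval of the limma fit as a bar; filled points are genes whose arrays did not overlap between genotypes. In whole leukemia 24 of 29 lysosome genes lie left of 0, and in L-GMP 16 of 29.

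In L-GMP the genotypes differed little as groups of genes. Of the 29 lysosome genes 16 had a lower and 13 a higher mean in AMPK-deficient cells, with a median of -0.03; of the 21 autophagy genes 14 were higher and 7 lower, with a median of 0.10. Over all genes the median was 0.02 and 45.2% were lower. Limma called 0 of the 50 members, against 0.00563% of all genes (1 gene, not a member), and 3 members (6.0%) against 4.13% of all genes had an unadjusted p under 0.05. The arrays did not overlap for 5 of the 50 members (10.0%), against 9.48% of all genes, so the members were near the background. Without wild-type L-GMP array 1, 20 of the lysosome genes were lower with a median of -0.153 and the autophagy median was 0.03; without AMPK-deficient L-GMP array 2 the lysosome median was 0.01. In these L-GMP samples 16 of 19 monocyte and macrophage markers were lower, with sums of 7665 to 10193 in AMPK-deficient and 8762 to 14284 in wild-type cells. All 7 myeloid progenitor granule markers were higher in AMPK-deficient L-GMP, 3 of them without overlap (42.9%, against 9.48% of all genes in either direction), with sums of 13380 to 21536 in AMPK-deficient and 9370 to 13731 in wild-type cells. All 8 eosinophil, basophil and mast cell markers were higher too, none without overlap, with sums of 671 to 5813 in AMPK-deficient and 647 to 831 in wild-type cells. Their mean log2 level was 8.12 in AMPK-deficient array 2, but 6.11 and 5.56 in arrays 1 and 3, against 5.62 to 5.91 in wild-type cells. The part of these markers was not tested, also not for Cd63, which measured higher in AMPK-deficient L-GMP.

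The 4 members of lowest p in L-GMP, none of which passed, were Tpp1, Ctss, Cd63 and Atg16l1. Tpp1 measured 8.50, 8.71 and 8.82 in AMPK-deficient L-GMP and 9.08, 9.41 and 9.03 in wild-type L-GMP. All AMPK-deficient arrays were below all wild-type arrays, and the difference was -0.49 (SE 0.19) (limma adjusted p = 0.9998). Ctss measured 8.24, 7.82 and 8.08 in AMPK-deficient L-GMP and 7.81, 10.11 and 10.07 in wild-type L-GMP. Wild-type array 1 lay at the foot of the AMPK-deficient range and the other 2 wild-type arrays far above it, and the difference of -1.29 (SE 0.54) was -2.05 without that array and -0.90 without wild-type array 2. Cd63 measured 10.23, 10.35 and 10.01 in AMPK-deficient L-GMP and 9.81, 9.01 and 9.29 in wild-type L-GMP, higher without overlap, at 1.78 times the wild-type level and a log2 difference of 0.83 (SE 0.35). Atg16l1, for the protein that places the conjugation enzymes on the membrane, measured 6.95, 6.84 and 6.95 in AMPK-deficient L-GMP and 6.80, 6.72 and 6.71 in wild-type L-GMP, a small difference of 0.17 (SE 0.09) without overlap. Gabarapl2, an ATG8 gene, and Pik3c3 were lower without overlap at -0.36 (SE 0.29) and -0.15 (SE 0.13); the adjusted p was 0.9998 for each of these members.

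Tpp1 and Pik3c3 were the members whose arrays stood apart between genotypes in the same direction in both populations, lower in AMPK-deficient cells. That is 1 of 29 lysosome and 1 of 21 autophagy genes, against 1.23% of all genes, and no member stood apart in opposite directions. Tpp1 differed by -0.49 in L-GMP and -0.46 in whole leukemia, and Pik3c3 by -0.15 and -0.39. Cd63 had like values too, 0.83 and 0.88, and so did Ctss, -1.29 and -1.31, each with overlap in 1 population. An exact permutation test of 3 arrays against 3 cannot give a two-sided p below 0.1.

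**Figure D4:**
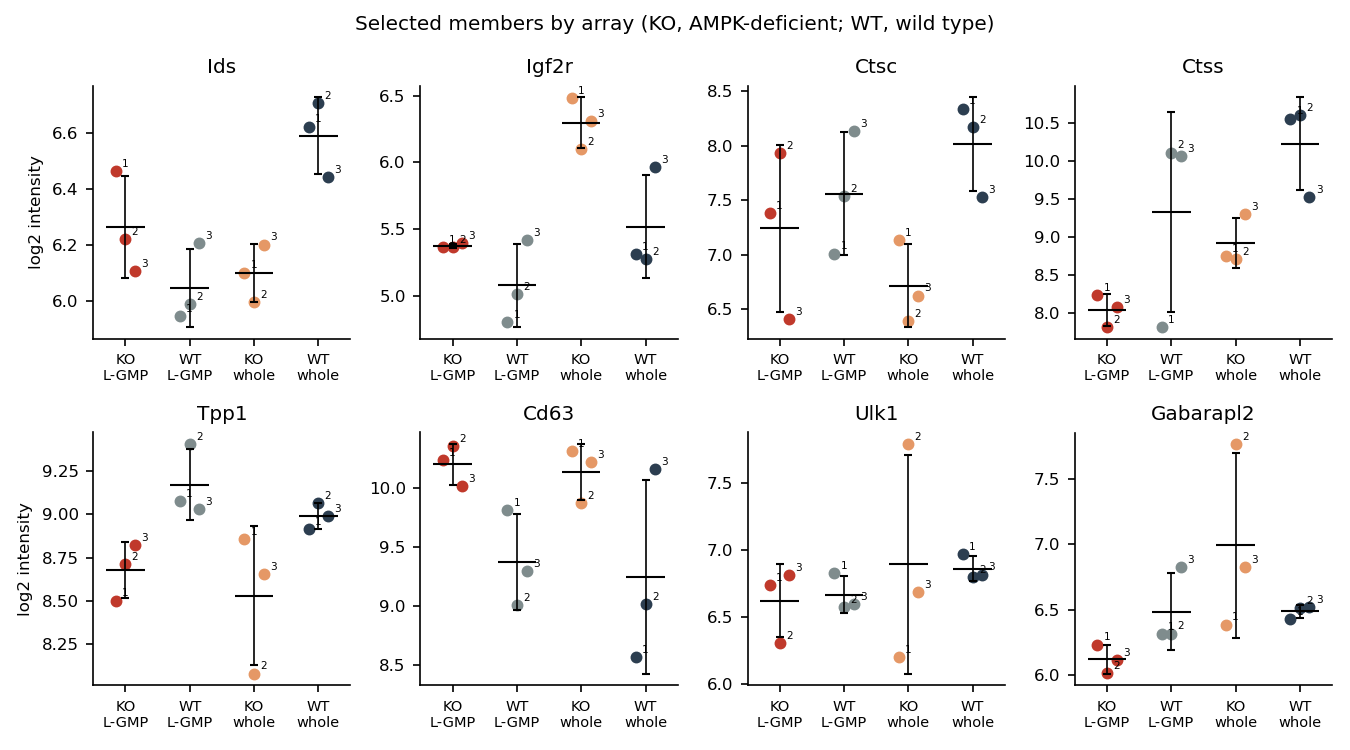
Log2 intensity of 8 members in every array (points, numbered by array), with group mean and SD (bars); each panel has its own axis, and KO stands for AMPK-deficient, WT for wild type. Ids is lower in AMPK-deficient than in wild-type whole leukemia in every array, Igf2r higher, and AMPK-deficient whole leukemia array 2 is the high point for Ulk1 and Gabarapl2, at 7.79 and 7.76.

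The transcription factor genes and Ulk1 showed no genotype difference that exceeded their spread. Tfeb measured 5.44, 5.22 and 5.53 in AMPK-deficient L-GMP and 5.36, 5.52 and 5.47 in wild-type L-GMP. In whole leukemia it measured 5.40, 5.73 and 5.57 in AMPK-deficient and 5.51, 5.57 and 5.62 in wild-type cells. The groups overlapped in both populations, and the 95% intervals of the difference were -0.30 to 0.19 in L-GMP and -0.25 to 0.24 in whole leukemia. Tfe3 measured 6.22, 6.04 and 6.61 in AMPK-deficient L-GMP and 6.41, 6.26 and 6.55 in wild-type L-GMP, with an interval of -0.52 to 0.29. In whole leukemia it measured 6.43, 6.47 and 6.86 in AMPK-deficient and 6.80, 6.34 and 6.39 in wild-type cells, with an interval of -0.33 to 0.48. Transcript levels say nothing of where the factors lie in the cell or how they are phosphorylated. Ulk1, for the kinase at the head of autophagy, measured 6.74, 6.31 and 6.81 in AMPK-deficient L-GMP and 6.83, 6.58 and 6.60 in wild-type L-GMP, an overlap with a difference of -0.05 (SE 0.32). In whole leukemia it measured 6.20, 7.79 and 6.69 in AMPK-deficient and 6.97, 6.80 and 6.82 in wild-type cells. The 3 AMPK-deficient arrays spanned the wild-type ones, and the difference of 0.03 (SE 0.32) was -0.42 without AMPK-deficient array 2.

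L-GMP had lower means than whole leukemia for most members in wild-type leukemia. Of the 50, 42 were lower, 24 of 29 lysosome genes (median -0.15) and 18 of 21 autophagy genes (median -0.17), against 51.2% of all genes and a median of 0.00. Limma called 0 members and 0% of all genes; at an unadjusted p under 0.05 there were 6 members (12%), against 2.5% of all genes. Arrays did not overlap for 6 members, all lower in L-GMP (12%), against 10.3% of all genes in either direction and 5.4% lower. Without wild-type L-GMP array 1 the autophagy median was -0.073 with 13 of 21 lower. Beside this, 18 of 19 monocyte and macrophage markers and 16 of 16 neutrophil markers were lower in wild-type L-GMP; the monocyte sums were 8762 to 14284 in L-GMP and 14258 to 17279 in whole leukemia, and their part was not tested.

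Ids again had the lowest p, at 5.95, 5.99 and 6.21 in wild-type L-GMP and 6.62, 6.71 and 6.44 in wild-type whole leukemia. The groups did not overlap, and the difference was -0.55 (SE 0.12) (limma adjusted p = 0.9999). Map1lc3a, one of the genes for LC3, measured 5.28, 5.45 and 5.55 in wild-type L-GMP and 5.68, 5.77 and 6.02 in wild-type whole leukemia, lower without overlap with a difference of -0.40 (SE 0.12). Psap measured 9.16, 9.23 and 9.89 in wild-type L-GMP and 10.57, 10.02 and 9.67 in wild-type whole leukemia; its difference of -0.66 (SE 0.25) came with overlap and was -0.42 without wild-type whole leukemia array 1. Ctsl measured 6.77, 7.19 and 7.70 in wild-type L-GMP and 8.23, 7.87 and 7.52 in wild-type whole leukemia, -0.65 (SE 0.27) with overlap, and -0.43 without wild-type L-GMP array 1. Npc1, Lamp2, Wipi1 and Atg9a were lower without overlap at -0.41, -0.19, -0.49 and -0.38. The dimmer probe set of Npc1 was at -0.015.

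In AMPK-deficient leukemia the lysosome genes did not lean one way between L-GMP and whole leukemia. There 17 of 29 were higher in L-GMP (median 0.07), and without whole leukemia array 2 there were 10 higher and 19 lower (median -0.08). Of the 21 autophagy genes 15 were lower (median -0.15), and without that array 12 were lower (median -0.046). Limma called 0 members and 0% of all genes, and 3 members (6.0%) against 7.39% of all genes had an unadjusted p under 0.05. Arrays did not overlap for 6 of the 50 members (12%), against 10.2% of all genes. All 16 neutrophil markers were lower in L-GMP, with sums of 6317 to 14512 against 16725 to 44564 in whole leukemia, and all 7 erythroid markers, with sums of 268 to 436 against 263 to 8149 (5 of 7 without whole leukemia array 2); their part was not tested.

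Igf2r led these members, at 5.36, 5.37 and 5.39 in AMPK-deficient L-GMP and 6.48, 6.10 and 6.31 in AMPK-deficient whole leukemia. The L-GMP arrays lay within a narrow band well below all whole leukemia arrays, 0.528 times their level (-0.92 (SE 0.20); limma adjusted p = 0.671). Gabarapl2 measured 6.23, 6.02 and 6.11 in AMPK-deficient L-GMP and 6.39, 7.76 and 6.82 in AMPK-deficient whole leukemia, lower without overlap with a difference of -0.87 (SE 0.29), or -0.48 without whole leukemia array 2. Rb1cc1, for the scaffold of the initiation complex, measured 7.10, 7.12 and 6.32 in AMPK-deficient L-GMP and 7.20, 8.12 and 7.38 in AMPK-deficient whole leukemia, with -0.72 (SE 0.26) and -0.44 without that array. Pik3c3 was higher in L-GMP without overlap, at 7.81, 7.89 and 7.88 in AMPK-deficient L-GMP and 7.75, 7.21 and 7.76 in AMPK-deficient whole leukemia, by 0.29 (SE 0.13) and by 0.10 without that array. Ctss was lower (-0.88) and Atg14 higher (0.27, or 0.145 without that array) in L-GMP without overlap.

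**Figure D5:**
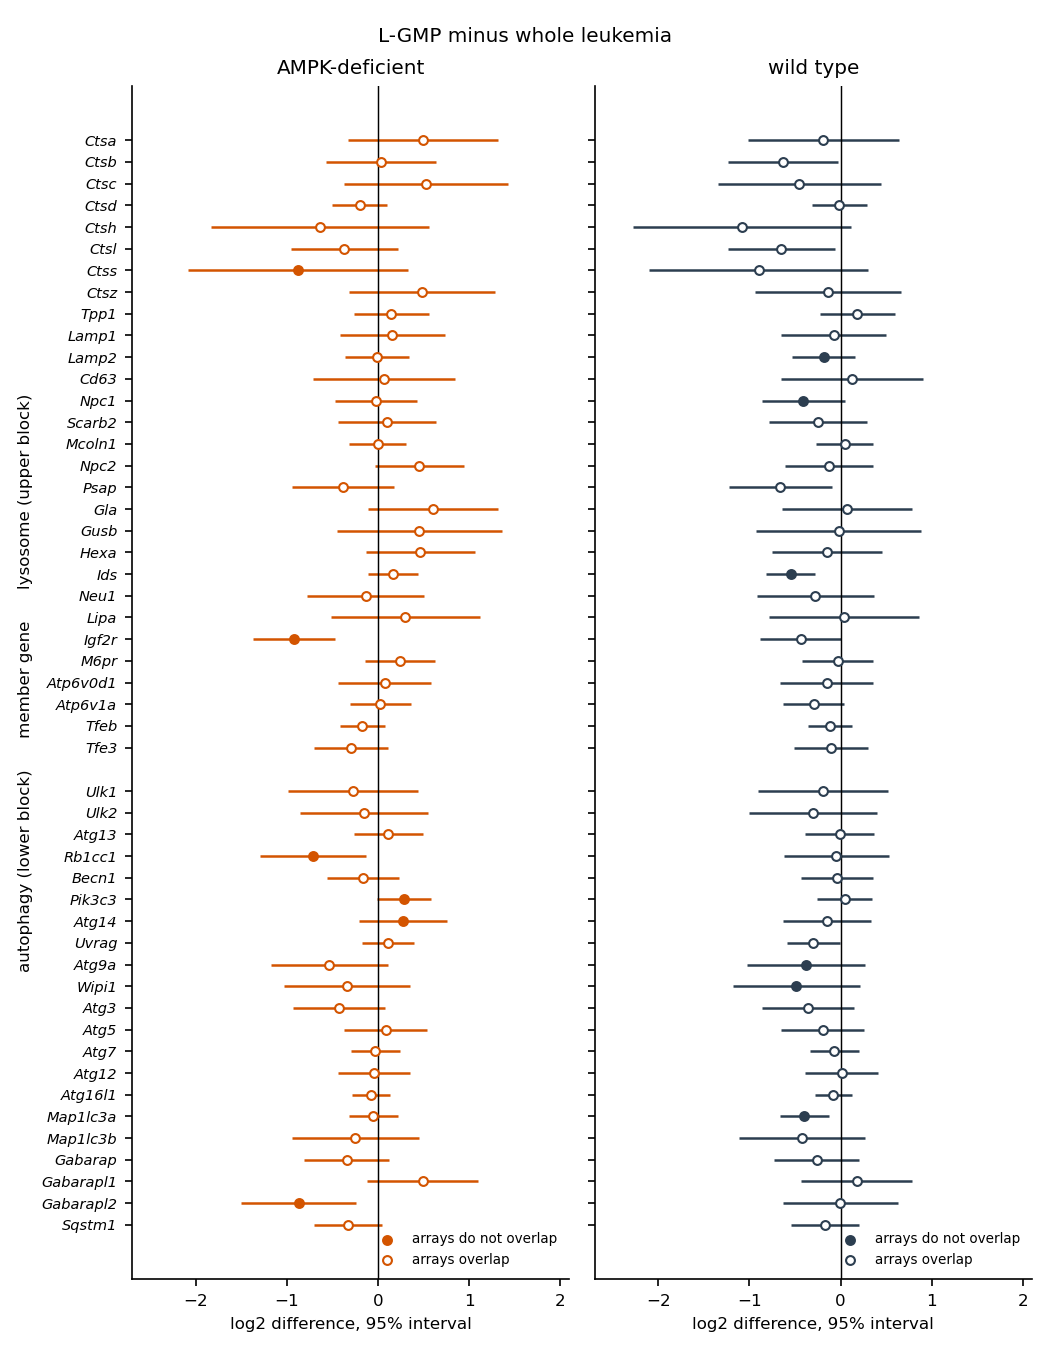
Log2 difference, L-GMP minus whole leukemia, for the 50 members in AMPK-deficient (left) and wild-type leukemia (right), with the 95% interval of the limma fit as a bar; filled points are genes whose arrays did not overlap between populations. In wild type 42 of 50 members lie left of 0, and in AMPK-deficient leukemia 27 of 50.

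Averaged over both genotypes, L-GMP minus whole leukemia gave a lysosome median of -0.07 and an autophagy median of -0.22, with 16 of 29 and 17 of 21 lower. Limma called 0 members and 0% of all genes, and 8 members (16%) against 7.52% of all genes had an unadjusted p under 0.05. The 4 members of lowest p were all lower in L-GMP: Igf2r at -0.68 (SE 0.14) (adjusted p = 0.655), Psap at -0.52 (SE 0.18), Ctsl at -0.51 (SE 0.19) and Map1lc3a at -0.22 (SE 0.09) (adjusted p = 0.661 for each of the last 3). Without AMPK-deficient whole leukemia array 2 the autophagy median was -0.115 and 24 of 29 lysosome genes were lower.

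The test of whether the genotype difference itself depended on the population, the L-GMP difference minus the whole leukemia difference, called 0 members and 0% of all genes, and 2 members (4.0%) against 2.06% of all genes had an unadjusted p under 0.05. Values were above 0 for 22 of 29 lysosome genes (median 0.28) and 12 of 21 autophagy genes (median 0.04), against a median of 0.02 over all genes; without AMPK-deficient whole leukemia array 2 the lysosome median was 0.14, and 17 of 21 autophagy genes were above 0 with a median of 0.092. Without both AMPK-deficient number 2 arrays 19 of the 21 were above 0, with a median of 0.158. Ids stood first, at 0.71 (SE 0.17) with limma adjusted p = 1: AMPK-deficient minus wild type was 0.22 among L-GMP and -0.49 in whole leukemia. Ids in AMPK-deficient L-GMP measured 6.46, 6.22 and 6.11, overlapping the 5.95, 5.99 and 6.21 of wild-type L-GMP. Uvrag (0.41 (SE 0.18)), Gabarapl2 (-0.87 (SE 0.40)) and Map1lc3a (0.35 (SE 0.17)) followed, with Gabarapl2 at -0.48 without AMPK-deficient whole leukemia array 2. Uvrag, for a subunit that turns the lipid kinase to endosomes, measured 8.56, 8.53 and 8.58 in AMPK-deficient L-GMP and 8.16, 8.57 and 8.36 in wild-type L-GMP, and 8.32, 8.37 and 8.65 in AMPK-deficient and 8.56, 8.83 and 8.60 in wild-type whole leukemia, with overlap in both populations.

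Further genes of the same pathways were read for breadth: 43 other lysosome genes (37 tested), 16 other proton pump genes (14 tested) and 40 other autophagy genes (38 tested). Limma called 0 of them in any of the 6 comparisons. In whole leukemia 27 of the 37 lysosome genes were lower in AMPK-deficient cells (median -0.17), 7 of them without overlap (18.9%, against 5.73% of all genes); without AMPK-deficient array 2, 21 were lower and the median was -0.03. Those of lowest p were Naglu, Galns and Arsa, for enzymes that degrade heparan sulfate, keratan sulfate and sulfatide, at -0.90 (SE 0.27), -0.72 (SE 0.24) and -0.39 (SE 0.13), and Ctsf, for cathepsin F, at 0.49 (SE 0.20), with adjusted p-values of 0.772 or 0.827. Proton pump genes were divided, 9 lower and 5 higher (6 and 8 without that array); Atp6v0a1 was at 0.89 (SE 0.35) and the accessory subunit gene Atp6ap1 at -0.27 (SE 0.11). Other autophagy genes were lower in 23 of 38 (median -0.08), and in 30 of 38 without AMPK-deficient array 2 (median -0.11). Of these 38, 6 were lower without overlap (15.8%, against 5.73% of all genes) and 0 were higher without overlap. Vmp1, for an endoplasmic reticulum protein needed to form autophagosomes, was at -0.88 (SE 0.17; adjusted p = 0.491), Vps41 and Vps39, for subunits of the complex that tethers vesicles to lysosomes, at -0.70 (SE 0.21) and -0.36 (SE 0.15), and the lipid transfer gene Atg2b at -0.33 (SE 0.11), each without overlap.

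In L-GMP the same lists were divided between genotypes. AMPK-deficient cells had higher means for 21 of 37 lysosome, 6 of 14 proton pump and 15 of 38 autophagy genes. Of the autophagy genes 60.5% were lower, against 45.2% of all genes. Without overlap 4 of the 38 were lower (10.5%, against 3.66% of all genes) and 2 higher (5.26%, against 5.82%). The genes of lowest p in these lists were Snap29, for a protein that fuses autophagosomes with lysosomes (-0.45, SE 0.16), Vps18 (-0.27, SE 0.10), Rubcn, for an inhibitor of the UVRAG complex (-0.29, SE 0.12), and Rab7 (-0.27, SE 0.13), all with limma adjusted p = 0.9998. Vps18, Rubcn and Rab7 were without overlap, and Snap29 overlapped. Between populations, 29 of the 37 lysosome genes and 12 of the 14 proton pump genes were lower in wild-type L-GMP than in whole leukemia (medians -0.10 and -0.13). Of the other autophagy genes, 21 of 38 were lower in wild-type L-GMP (median -0.024), none without overlap, and over both genotypes 23 were higher and 15 lower (median 0.03). In AMPK-deficient leukemia 23 of 37 lysosome, 5 of 14 proton pump and 21 of 38 autophagy genes were higher in L-GMP, and 14, 4 and 21 without whole leukemia array 2. Lgmn, for the protease legumain, was lower in wild-type L-GMP (-0.56, SE 0.23). In AMPK-deficient leukemia 3 of the 38 autophagy genes were higher in L-GMP without overlap, 7.89% against 5.49% of all genes. They were Vmp1 (0.60, SE 0.17), Atg2b (0.35, SE 0.11) and Vps39 (0.42, SE 0.15), with limma adjusted p = 0.672. Lower without overlap was 1 of the 38 (2.63%, against 4.66% of all genes).

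Members with the TCACGTG motif in their promoter did not separate from those without it. In whole leukemia the 11 tested members with the motif had a median AMPK-deficient minus wild-type difference of -0.15, and the 29 tested members whose promoter lacked it -0.19. In L-GMP the medians were 0.02 and -0.03. Of the promoters printed above, those of Lamp1 and Ctsa belong to genes that were lower without overlap in AMPK-deficient whole leukemia, that of Igf2r to the gene that was higher without overlap, and those of Ctsd, Gla, Mcoln1 and Atg3 to genes whose arrays overlapped. The separation of Ctsa was a near tie.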

How the data were processed

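The deposited table holds linear intensity values, 1 per probe set and array (33794 probe sets, 17.96 to 9108.2). How the authors made them (software, background correction, normalization) is not given in the sources used here. Array depth is not a count, and the number of arrays limits the precision. Values were taken to log2 without scaling or pseudocount. Of the probe sets, 23521 had 1 gene symbol in the platform annotation, 1814 several and 8459 were not listed; the brightest probe set with that symbol alone stood for each gene. Genes below a mean of 4.719 (the lowest 25% of probe sets; 4431 of 22180 genes) were left out. Groups were compared with limma 3.58.1 (R 4.3.3; lmFit, eBayes), fitting a mean for each group on the 12 arrays together, with 8 residual and 2.36 prior degrees of freedom and Benjamini-Hochberg adjustment over 17749 genes. A gene was called at an adjusted p under 0.05. The script was tested on simulated data.

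Tfeb, Tfe3 and Ulk1 were always named with every array, as were the 4 members of lowest p in a comparison with fewer than 4 calls, and up to 4 other pathway genes per list. Members and lists were chosen with earlier results of these data known. Other members without overlap were named after their values were seen. Deviations of same-numbered arrays from their group means correlated at 0.363, 0.623 and 0.301 between wild-type L-GMP and whole leukemia. Wild-type arrays of different numbers correlated at -0.373 to 0.029. Between AMPK-deficient L-GMP and whole leukemia the same-numbered values were 0.133, 0.09 and 0.432. There, L-GMP array 2 correlated more with whole leukemia array 1, at 0.19. Deviations from a shared group mean depend on each other, so these values cannot decide whether equal numbers are the same animal. The labels do not state it. Between genotypes the same-numbered values ranged from -0.104 to 0.187. Promoter sequences are from the RefSeq table of GRCm38.p6, which was not checked against the array's build, and 10 of the 51 genes were not matched in it.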

Additional observations from a re-analysis of the deposited data

How the results depend on the processing

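No member was called by limma under any of the 21 or 22 alternatives per comparison. These were another normalization, filter, variance model, probe set rule or background offset, array weights, the groups compared alone, the replicate block, and arrays left out. The lowest limma adjusted p of a member was 0.204 and 0.159 for the genotype difference in L-GMP and whole leukemia, and 0.908 for the interaction. For L-GMP minus whole leukemia it was 0.0954, 0.868 and 0.124 in AMPK-deficient, wild-type and both. Over all genes, the most called under any alternative were 4 and 1 for the genotype difference in L-GMP and whole leukemia. For L-GMP minus whole leukemia they were 41, 0 and 9 in the same order, and for the interaction 0. With the replicate number as a block, 0 members and 0 genes were called in each of the 6 comparisons (lowest adjusted p of a member 0.318). The whole leukemia lysosome median lay between -0.435 and -0.203, with 22 to 26 of 29 lower in AMPK-deficient cells. The lysosome interaction median was 0.062 with array weights. The autophagy median in whole leukemia ranged from -0.053 to 0.168 when 1 array was left out and was -0.053 without both AMPK-deficient number 2 arrays, when that of L-GMP minus whole leukemia in AMPK-deficient leukemia was 0.031; the cause was not tested. Of 910 values of the members named by the rule, 27 reversed sign, all of Tfeb, Tfe3 or Ulk1. Apart from these genes, the members were taken for their low p in these data, so their signs could hardly reverse. The rule leaves out other values that changed sign. Without AMPK-deficient whole leukemia array 2 these were Gusb, Lipa, Ulk2, Atg13 and Gabarap for the genotype difference in whole leukemia. For L-GMP minus whole leukemia in AMPK-deficient leukemia they were Ctsz, Tpp1, Lamp1, Cd63, Gusb, Lipa, Atp6v1a, Becn1 and Map1lc3a. With quantile normalization Tfeb was 0 in whole leukemia. With array weights Ulk1 was 0.059 in L-GMP, -0.138 in whole leukemia and 0.197 for the interaction. Leaving out 1 array gave, in L-GMP and whole leukemia, -0.12 to 0.034 and -0.082 to 0.079 for Tfeb, -0.275 to 0.011 and -0.062 to 0.222 for Tfe3, and -0.144 to 0.107 and -0.416 to 0.378 for Ulk1. For the interaction it gave -0.134 to 0.035 for Tfeb and -0.426 to 0.367 for Ulk1, and for L-GMP minus whole leukemia -0.188 to 0.045 for Tfe3 in wild type and -0.618 to 0.175 for Ulk1 in AMPK-deficient leukemia. Without both AMPK-deficient number 2 arrays, Tfeb, Tfe3 and Ulk1 were 0.034, 0.011 and 0.107 in L-GMP and Ulk1 was -0.416 in whole leukemia; L-GMP minus whole leukemia for Ulk1 was 0.331 in AMPK-deficient leukemia and 0.069 over both genotypes, and the interaction was 0.116 for Tfeb and 0.522 for Ulk1.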
